A study of Bos taurus with 28 samples.

Results

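MAOB (ENSBTAG00000001288) and CYP1A1 (ENSBTAG00000001021), 2 of the 24616 genes counted, were followed through calving in the subcutaneous adipose tissue (AT) of dairy cows. They are an amine oxidase and a xenobiotic oxidase that the study had already reported as lower after calving, and they were chosen with that known. Their reads were read in all 28 RNA-seq libraries. The libraries came from AT biopsies of 11 of the study's multiparous Holstein cows, for which the study names no experimental treatment. The prepartum biopsy (PreP, 9 libraries) was taken on average 11 days before the expected calving date (labelled day -11), and the biopsies after calving on average on day 6 (PP1, 10 libraries) and day 13 (PP2, 9 libraries), with some spread between cows. All 3 biopsies were on hand for 8 cows. Cows ate a close-up diet before calving and a fresh-cow diet afterward, so time, calving, lactation and diet cannot be told apart.

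MAOB is a flavin enzyme of the outer mitochondrial membrane that oxidizes amines such as dopamine and phenylethylamine to aldehydes, releasing ammonia and hydrogen peroxide. Its close relative MAOA favors serotonin and noradrenaline, the transmitter with which sympathetic nerves drive fat breakdown in AT. CYP1A1 is a heme monooxygenase of the endoplasmic reticulum that oxidizes polycyclic aromatic compounds and some fatty acids, and its transcription is the classical readout of the aryl hydrocarbon receptor (AHR). In the bovine RefSeq assembly ARS-UCD2.0, MAOA is the next coding gene to MAOB and CYP1A2 the next to CYP1A1, and no annotated gene overlaps either one.

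Total counts per library ran from 15293154 to 22284884, and levels are given as CPM, the reads of a gene scaled to library size. Of 22 adipocyte markers listed, 2 had an identifier that could be matched, PPARG, the master regulator of fat cells, and RBP4, a retinol carrier made by fat. Their summed level ran from 926 to 3386 CPM at PreP, from 147 to 2337 CPM at PP1 and from 140 to 1885 CPM at PP2. Some libraries stood apart. The PP2 library of cow B5090 held skeletal muscle RNA, with PYGM, the muscle glycogen phosphorylase, at 6669 CPM against 0.285 to 2.96 CPM in every other library. In cow B5169, CD68, a macrophage marker, was the highest of all PreP libraries (101 CPM) and the lowest of all PP1 libraries (32.4 CPM, with 102 CPM the next), while MAOB was the lowest at PreP and the highest at PP1. In the same cow CYP1A1 (21.6 and 11.8 CPM) and RBP4 (3224 and 1394 CPM) were lower at PP1 than at PreP, as in most cows. PPARG was higher at PP1 than at PreP in this cow (162 and 238 CPM), unlike in most cows. Both libraries were kept under their labels. For MAOB and CYP1A1, fold changes against PreP that rest on these libraries are also given with each of them left out. Fold changes of all other genes are given only with these libraries.

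MAOB was highest before calving. At PreP its level was 51.8 CPM in cow B5169, 89.7 in B4886, 98.6 in B5129, 99.6 in B5064, 108 in B5102, 110 in B4987, 120 in B5090, 133 in B5165 and 172 in B5176, on 1039 to 2918 reads. At PP1 it was 0.655 CPM in B5102, 11.1 in B5064, 16.6 in B4886, 19.7 in B5129, 20.5 in B5165, 22.0 in B5090, 30.4 in B5054, 52.0 in B4987, 65.1 in B5079 and 134 in B5169. At PP2 it was 8.20 CPM in B4987, 9.85 in B4886, 12.9 in B5102, 14.3 in B5064, 19.9 in B5129, 27.4 in B5090, 30.9 in B5165, 38.9 in B5169 and 46.5 in B5079. The mean was 109 ± 32.6 CPM at PreP (SD, n = 9), 37.2 ± 38.8 at PP1 (n = 10) and 23.2 ± 13.5 at PP2 (n = 9). The PreP libraries lay close together, the PP1 libraries were the most scattered of the 3 time points, and the PP2 libraries were all low.

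CYP1A1 was also highest before calving, at 8.61 CPM in B5165, 11.5 in B5064, 12.7 in B5129, 12.8 in B5090, 16.2 in B4987, 21.6 in B5169, 21.8 in B5102, 22.2 in B4886 and 34.0 in B5176, on 189 to 558 reads. At PP1 it was 0 in B5102, 0.224 CPM in B5064, 0.334 in B5090, 5.40 in B5165, 5.57 in B5079, 6.30 in B5054, 9.77 in B4987, 11.3 in B5129, 11.8 in B5169 and 12.1 in B4886. At PP2 it was 0 in B4987, 0.551 CPM in B5129, 0.630 in B4886, 0.721 in B5165, 2.87 in B5102, 3.36 in B5064, 4.75 in B5090, 5.13 in B5079 and 7.87 in B5169. The mean was 17.9 ± 7.82 CPM at PreP, 6.28 ± 4.88 at PP1 and 2.88 ± 2.67 at PP2 (SD, n = 9, 10 and 9). After calving the libraries separated into some with almost no CYP1A1 reads and others with a reduced but clear level.

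**Figure D1:**
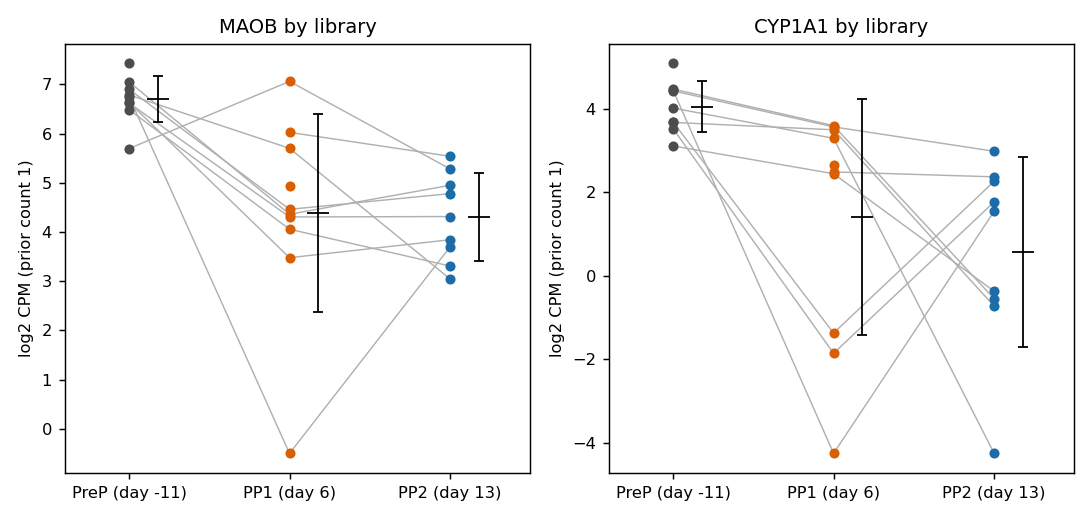
Level of MAOB (left) and CYP1A1 (right) in each library as log2 CPM with a prior count of 1, by time point. Grey lines join libraries of the same cow, and the black bars give the mean ± SD (n = 9, 10 and 9). Libraries with 0 reads take the lowest value that the prior count allows, and all PP2 points lie below all PreP points in both genes.

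The first comparison asked what differed between day 13 after calving and the prepartum biopsy. MAOB fell 4.54-fold at PP2 (log2 fold change -2.18, SE 0.31), with an adjusted p of 0.00102 in edgeR's quasi-likelihood test, and ranked 13 by p among the 18558 genes tested. CYP1A1 fell 6.00-fold (log2 fold change -2.58, SE 0.60, adjusted p = 0.0159 in the same test) and ranked 349. In this comparison 362 genes, or 1.95% of those tested, were called lower, which required an adjusted p under 0.05 and a log2 fold change under -1. In bulk tissue, fewer cells of a type and less RNA per cell cannot be told apart.

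At PP2 no library overlapped with PreP in either gene. The lowest PreP library of MAOB had 51.8 CPM and the highest PP2 library 46.5 CPM, a gap of 1.11-fold. For CYP1A1 the same bounds were 8.61 and 7.87 CPM, a gap of 1.09-fold. Of all genes tested, 29 (0.156%) had every PP2 library below every PreP library, and both MAOB and CYP1A1 were among them. These gaps were narrow. Without the PreP library of B5169, the next lowest PreP library of MAOB had 89.7 CPM, a gap of 1.93-fold, and the gap of CYP1A1 was the same as before. No bound rests on the PP2 library of B5090. With libraries scaled by their total counts alone, 8 of 9 PP2 libraries lay below every PreP library in each gene, with 50.0 against 50.3 CPM for MAOB and 9.08 against 9.09 CPM for CYP1A1 at the bounds.

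An exact permutation test of the difference in mean log2 CPM, over all 48620 splits and two-sided, gave -2.40 for MAOB and -3.49 for CYP1A1. The permutation p was 4.11e-05 for each, the smallest p this design allows. Groups that do not overlap always give this p, so it adds nothing to the gaps above. The splits also ignore the pairing of libraries by cow. Without cow B4987, whose PP2 library had 0 CYP1A1 reads, the difference for CYP1A1 was -2.90. Within cows both genes were lower at PP2 than at PreP in 8 of 8 pairs, which the lack of overlap requires. The exact test over sign changes within these 8 cows gave p = 0.00781 for each gene, again the smallest p possible. MAOB at PP2 ran from 7.43% of the same cow's PreP level in B4987 to 75.1% in B5169, with a median of 17.2%. CYP1A1 ran from 0% in B4987 to 37.0%, with a median of 10.8%. Both genes thus fell in all paired cows, and the size of the fall differed widely between cows. Without the PP2 library of B5090 that held muscle RNA, the log2 fold changes were -2.20 for MAOB and -2.68 for CYP1A1, with edgeR adjusted p of 0.000742 and 0.0103. Without the PreP library of B5169 they were -2.29 and -2.56, with edgeR adjusted p of 0.000198 and 0.0175.

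At day 6 the picture was less uniform. MAOB differed from PreP by a log2 fold change of -1.55 (SE 0.49) and CYP1A1 by -1.48 (SE 0.59), and neither passed the threshold over 18467 genes (edgeR adjusted p = 0.0616 and 0.124). In this comparison 128 genes (0.693%) were called lower and 2 genes (0.0108%) had every PP1 library below every PreP library. Neither MAOB nor CYP1A1 was among those 2, with 7 of 10 PP1 libraries below every PreP library in MAOB and 6 of 10 in CYP1A1.

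The call for MAOB at PP1 turned on single libraries. In B5169 MAOB at PP1 stood at 258% of its PreP level, whereas it was lower in the 7 other cows with both biopsies. Without the PP1 library of B5169 the log2 fold change was -2.0 (edgeR adjusted p = 0.00338), and without that of B5102, the lowest one, it was -1.40 (adjusted p = 0.0356). Without all libraries of cow B5102 the value was also -1.40 and did not pass (adjusted p = 0.0570). Without cow B5169 the value for MAOB was -2.09 (adjusted p = 0.00256), without the PreP library of B5169 alone -1.64 (adjusted p = 0.0504) and without cow B5079 -1.67 (adjusted p = 0.0492). CYP1A1 at PP1 was -1.62 without the PP1 library of B5169 and -1.44 without its PreP library, with edgeR adjusted p of 0.0702 and 0.142. The exact permutation test on log2 CPM gave a difference of -2.32 for MAOB (p = 0.000758, over 92378 splits) and -2.65 for CYP1A1 (p = 0.00233). The value for CYP1A1 depends in part on the prior count given to libraries with 0 reads, and without cow B5102 it was -1.97.

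Within cows CYP1A1 was lower at PP1 than at PreP in 8 of 8 pairs and MAOB in 7 of 8. Exact tests over sign changes within the 8 cows gave p = 0.00781 for CYP1A1, the smallest p possible, and p = 0.0234 for MAOB. At PP1, MAOB stood at a median of 18.4% of the cow's PreP level and CYP1A1 at a median of 54.6%. For CYP1A1, 3 cows had a level at or under 2.60% of PreP and the other 5 had 54.3% or more.

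**Figure D2:**
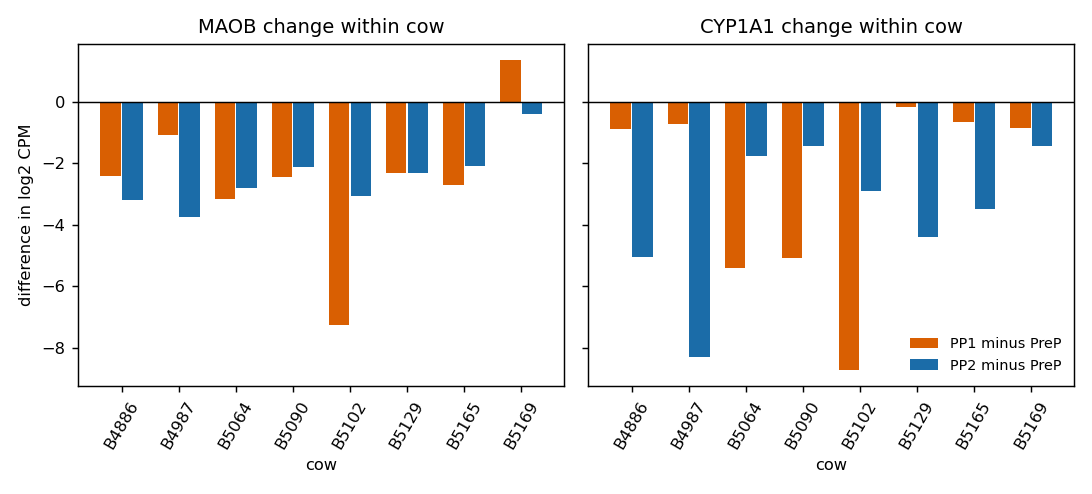
Change in log2 CPM from the PreP biopsy to PP1 (orange) and to PP2 (blue) within each of the 8 cows with all 3 biopsies, for MAOB (left) and CYP1A1 (right). MAOB lies above 0 in B5169 at PP1 alone. For CYP1A1 the deepest bar is at PP1 in B5064, B5090 and B5102 and at PP2 in the other cows.

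PP2 and PP1 did not differ beyond their spread in either gene. MAOB had a log2 fold change of -0.68 from PP1 to PP2 (95% interval -1.76 to 0.40) and CYP1A1 of -1.12 (95% interval -2.72 to 0.48), with an edgeR adjusted p of 0.970 for each. Without the PP1 library of B5169 the value for MAOB was -0.19, and with cow as a block it was -0.15. No gene of the 18518 tested passed an adjusted p of 0.05 in this comparison, although 1037 had an unadjusted p under 0.05. The likelihood ratio test of edgeR called 160, the fit of all 3 time points 176 and the fit with cow as a block 1. Of 9 cows sampled at both times, MAOB was lower at PP2 in 4 and higher in 5, and CYP1A1 was lower in 6 and higher in 3. Both genes moved in the same direction in 7 of the 9.

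The order of the levels differed between cows. MAOB fell stepwise from PreP through PP1 to PP2 in 2 of 8 cows and was lowest at PP1 in 5. CYP1A1 fell stepwise in 5 of 8 cows and was lowest at PP1 in the other 3.

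CYP1A1 was nearly absent from 7 of the 19 libraries taken after calving, here counted as a level under 1 CPM. At PP1 these were B5102 with 0 reads, B5064 with 5 and B5090 with 6, and at PP2 they were B4987 with 0, B4886 with 11, B5129 with 11 and B5165 with 15. In the other PP1 libraries the level was at least 5.40 CPM, and in the other PP2 libraries at least 2.87 CPM. No cow was under 1 CPM at both times. Of the 8 cows with all 3 biopsies, 7 therefore had 1 library nearly without CYP1A1, at PP1 in 3 cows and at PP2 in 4, and B5169 had none. The 1 CPM line was drawn after the values were seen, and no PreP library was near it.

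The counts expected at the depth of these libraries were higher. At the median PP1 level, B5102 would have held 90.6 CYP1A1 reads, B5064 133 and B5090 107, and at the median PP2 level B4987 would have held 54.9. The contrast was smaller in the remaining PP2 libraries under 1 CPM. These would have held 50.1 reads in B4886 against 11 seen, 57.2 in B5129 against 11 and 59.7 in B5165 against 15. The limit of 3 reads that a count of 0 allows corresponded to 0.197 CPM in B5102 at PP1 and 0.157 CPM in B4987 at PP2, for counting error only. Of 2780 other genes whose PreP level lay within 1.5-fold of that of CYP1A1, 7 also had 0 reads in B5102 at PP1 and 3 in B4987 at PP2.

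MAOB came close to 0 in a single library, B5102 at PP1, with 10 reads where the PP1 median would have given 324. That was 0.60% of the PreP mean, and 2 of 1534 other genes of like PreP level stood at or below this share there. In the same cow MAOB was 108 CPM before calving and 12.9 CPM at PP2. MAOB in the other 6 libraries nearly without CYP1A1 ran from 8.20 to 30.9 CPM, so MAOB reads were present where CYP1A1 was almost missing.

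Adipocyte markers were low in these libraries, and in some others after calving. In the 7 libraries under 1 CPM of CYP1A1, RBP4 stood at 89.6 CPM in B5102, 158 in B5064 and 212 in B5090 at PP1, and at 101 in B4987, 121 in B4886, 374 in B5165 and 575 in B5129 at PP2. Every one lay below the lowest PreP library, at 764 CPM. PPARG ran from 18.6 to 94.2 CPM in the same 7 libraries and from 124 to 253 CPM at PreP. Low marker levels also occurred where CYP1A1 was above 1 CPM. There RBP4 lay below every PreP library in PP2 of B5090 (494 CPM), PP1 of B5129 (591) and PP1 of B4886 (628). PPARG did so in PP2 of B5064 (59.3 CPM) and B5090 (81.2) and in PP1 of B5129 (73.8), B5054 (97.8) and B4886 (115). Over all libraries RBP4 had a log2 fold change of -0.87 at PP1 and -1.0 at PP2, and PPARG of -0.42 and -0.89, none of which passed the test (edgeR adjusted p = 0.241, 0.218, 0.269 and 0.0917). The part of these markers in the results for MAOB and CYP1A1 was not tested.

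The levels were also set against the adipocyte markers. Per 100 CPM of PPARG, MAOB had a median of 65.5 CPM at PreP (32.0 to 104), 24.8 at PP1 (1.15 to 56.2) and 31.2 at PP2 (9.22 to 53.1). CYP1A1 had a median of 9.24 CPM per 100 CPM of PPARG at PreP (6.75 to 14.7), 4.58 at PP1 (0 to 15.3) and 3.4 at PP2 (0 to 5.85). Per 100 CPM of RBP4, MAOB had medians of 8.18, 3.31 and 3.45 CPM at PreP, PP1 and PP2, and CYP1A1 of 1.34, 0.579 and 0.298 CPM. Per PPARG the medians were lower after calving in both genes, and the PP1 ranges overlapped with PreP in both genes. At PP2 the range of MAOB overlapped with PreP, while the highest value of CYP1A1 (5.85) lay narrowly under the lowest at PreP (6.75). The share of all genes with such a gap per PPARG was not computed, so this gap is not a result about CYP1A1. Per RBP4 the ranges overlapped in both genes, with 0.410 to 2.91 CPM at PreP and 0 to 0.963 at PP2 for CYP1A1.

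Some markers of other cells rose after calving, against 3.34% of all genes tested called higher at PP1 and 3.52% at PP2. Of 30 macrophage markers listed, 4 could be matched, and their summed level ran from 101 to 257 CPM at PreP, from 121 to 1033 at PP1 and from 85.8 to 379 at PP2. CD68 rose at PP1 (log2 fold change 2.12) and PP2 (1.48), and MSR1 and GPNMB, a scavenger receptor and a glycoprotein of lipid-laden macrophages, rose at PP1 and did not pass the test at PP2. The fourth, CX3CR1, had log2 fold changes of 0.46 and 0.10 and was not called. Of 14 fibroblast markers, 5 could be matched and LUM, PI16 and PDPN rose at both times, LUM, a matrix proteoglycan, by 2.33 and 2.18 on the log2 scale. The other fibroblast markers, FBN1 (0.62 and 0.09) and MFAP5 (0.48 and -0.21), were not called. None of the matched markers of endothelial cells (2), pericytes and smooth muscle (2), lymphocytes (2), neutrophils (3) or mast cells (1) was called at either time, although FCGR3A, a neutrophil marker, had an edgeR adjusted p of 0.0125 at PP1 with a log2 fold change of 0.58, under the threshold on size. The part of these cells in the fall of MAOB and CYP1A1 was not tested.

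Whether the 2 genes changed by unequal amounts was asked with the ratio of their reads within each library. The log2 ratio of MAOB to CYP1A1 reads, with 1 added to each, averaged 2.65 ± 0.78 at PreP (SD, n = 9), 2.95 ± 1.75 at PP1 (n = 10) and 3.75 ± 1.81 at PP2 (n = 9). It was 0.30 higher at PP1 than at PreP (exact permutation p = 0.646) and 1.09 higher at PP2 (exact permutation p = 0.114). With each cow left out the difference ran from 0.05 to 0.57 at PP1, and at PP2 from 0.66 (without B4987) to 1.36. Within cows the change of the ratio from PreP to PP2 averaged 1.13 ± 1.81 (SD, n = 8), with 5 of 8 higher. The SD of the ratio was larger after calving than before, and no difference of its mean was detectable.

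How the 2 genes tracked each other across cows was asked first at PreP, where the libraries formed 1 cloud. There, log2 CPM of MAOB and CYP1A1 had a Pearson r of -0.02 (permutation p = 0.961) and a Spearman rho of -0.07 (permutation p = 0.880) over 9 cows, both 1 of 5 relations computed and with the same p after Benjamini-Hochberg adjustment. Without B5169 and B5176, the cows farthest from the median of MAOB, r was -0.61 (permutation p = 0.141). A relation before calving was thus not detectable. After calving the libraries fell into separate clusters by CYP1A1, so correlations within PP1 or PP2 that pool both clusters are given only among the alternatives at the end, with their tests.

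**Figure D3:**
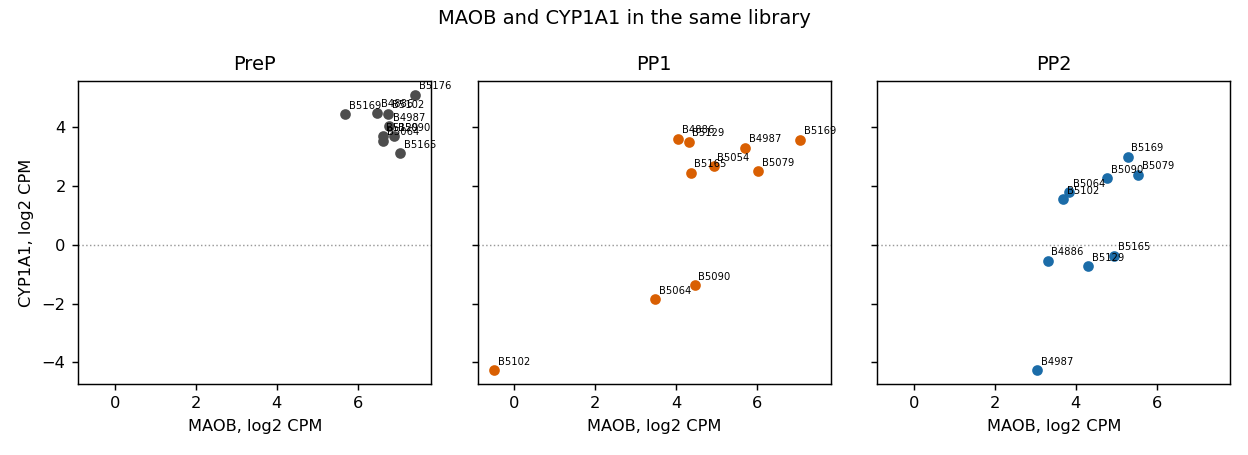
CYP1A1 against MAOB in the same library, both as log2 CPM, at PreP, PP1 and PP2, with each point named by its cow. The dotted line marks 1 CPM of CYP1A1, under which 3 PP1 and 4 PP2 libraries lie, and B5102 at PP1 is low in both genes.

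As a description with no test over all 28 libraries, which share cows and time points and pool both CYP1A1 clusters, log2 CPM of MAOB and CYP1A1 had an r of 0.81. Among 13649 genes with a mean of at least 1 CPM, CYP1A1 stood at rank 169 by likeness to MAOB, and MAOB at rank 77 by likeness to CYP1A1. The median r to MAOB over these genes was 0.05 and the 95th percentile 0.675, and for CYP1A1 they were 0.04 and 0.627. With the mean of each time point removed, r between MAOB and CYP1A1 was 0.71. Within the 7 PP1 libraries at or over 1 CPM of CYP1A1 alone, r was 0.06 and Spearman's rho -0.21.

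The gene most like MAOB was ACSM1, a mitochondrial medium-chain acyl-CoA synthetase, with an r of 0.96 over the 28 libraries and means of 582, 209 and 117 CPM at PreP, PP1 and PP2. The next gene has no symbol here (ENSBTAG00000007108, r = 0.95). Among the 1483 genes with a symbol, ACSM1 was followed by CCDC69 (r = 0.93), ISOC1 (0.92), PKP2, a desmosome protein (0.91), and FFAR4, a receptor for long-chain fatty acids (0.89). The gene most like CYP1A1 has no symbol here (ENSBTAG00000019455, r = 0.94). Among genes with a symbol FFAR4 (0.87) and RBP4 (0.86) came first for CYP1A1, followed by MACROH2A2, CCDC69 and ACSM1. FFAR4, CCDC69 and ACSM1 were thus among the first 5 named genes for both, which depends on which genes carry a symbol here. Over all 13649 genes they stood at ranks 32, 9 and 1 for MAOB and at ranks 10, 48 and 50 for CYP1A1. With time-point means removed, ACSM1 kept an r of 0.93 to MAOB.

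The other genes of both pathways could be followed only in part. Over all lists, those of cell markers included, 52 of 439 genes had an identifier. For amine breakdown 2 of 17 could be matched, MAOB and AKR1A1, an aldehyde reductase, which had a log2 fold change of -0.05 at PP2 (edgeR adjusted p = 0.925). SMOX, which oxidizes spermine, had log2 fold changes of 0.23 and 0.35 at PP1 and PP2. ADRB1, an adrenergic receptor, had log2 fold changes of -0.80 at PP1 and -0.08 at PP2. None of these passed the test. Of 36 proteins of the outer mitochondrial membrane, 4 could be matched and none passed the test, with TOMM40, a protein import channel, at -0.49 and CYB5B, an outer-membrane cytochrome, at -0.57 at PP2.

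Of 50 cytochrome P450 genes, 6 could be matched and 1 of them, CYP1A1, was called at PP2, where 1.95% of all genes tested were called lower, so that the absence of calls among so few others says nothing about the family. CYP1A2, the liver relative of CYP1A1, had 1, 2 and 3 reads in all libraries of PreP, PP1 and PP2 together, so no level could be given. CYP7B1, an oxysterol hydroxylase, had a log2 fold change of 0.78 at PP2, CYP51A1, of cholesterol synthesis, of -0.42, CYP20A1 of -0.12 and CYP24A1, which inactivates vitamin D, of -0.16. Of 27 genes of the AHR pathway, 3 could be matched, CYP1A1, CYP1A2 and HSP90AB1, a chaperone of the receptor, at 0.07 for PP2. ALAD, an enzyme of heme synthesis, had a log2 fold change of -0.82 at PP1, with an edgeR adjusted p of 0.0482 but a change under the threshold.

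Of 55 conjugation and other xenobiotic enzymes, 6 could be matched. GSTM3, a glutathione transferase, fell at PP1 (log2 fold change -1.92, edgeR adjusted p = 0.0298) and had a log2 fold change of -1.64 at PP2 (adjusted p = 0.151). The others, among them EPHX1, an epoxide hydrolase (0.14 at PP2), and NQO2, a quinone reductase (0.47), did not pass the test. The median log2 fold change of the 6 was 0.06 at PP1 and 0.02 at PP2, against 0.04 and 0.10 over all genes tested. MAOA, AOC3, ADRB3, CYP1B1, AHR, ARNT and AHRR were not analysed here, because no identifier could be matched to them.

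**Figure D4:**
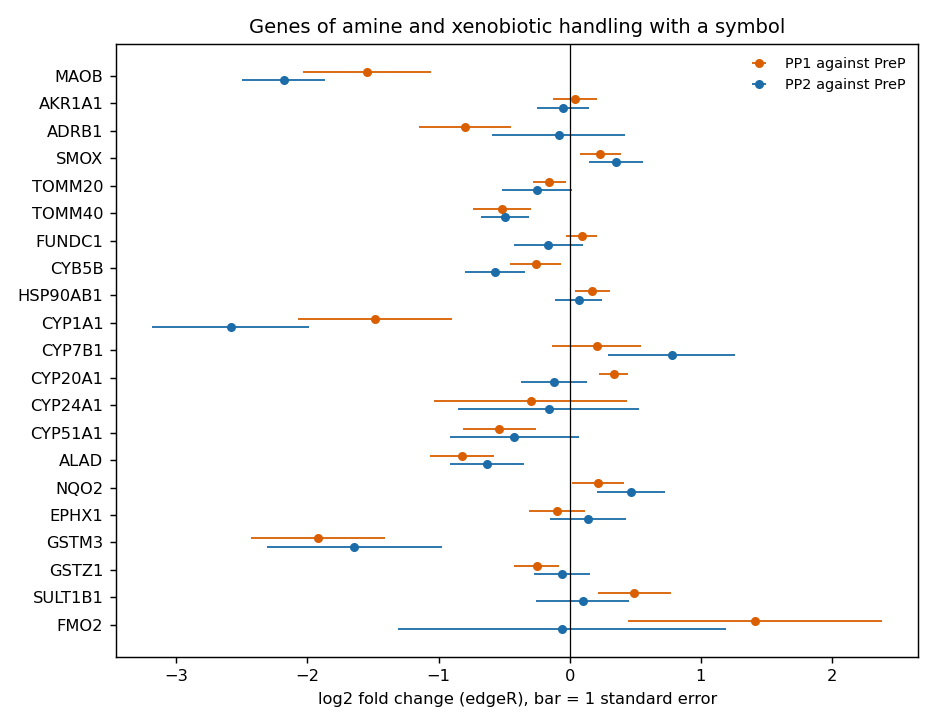
Log2 fold change of matched genes of amine and xenobiotic handling at PP1 (orange) and PP2 (blue) against PreP, with bars of 1 standard error. MAOB and CYP1A1 at PP2 and GSTM3 at PP1 are the points called lower, and the remaining genes lie closer to 0 or have wide bars.

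**Figure D5:**
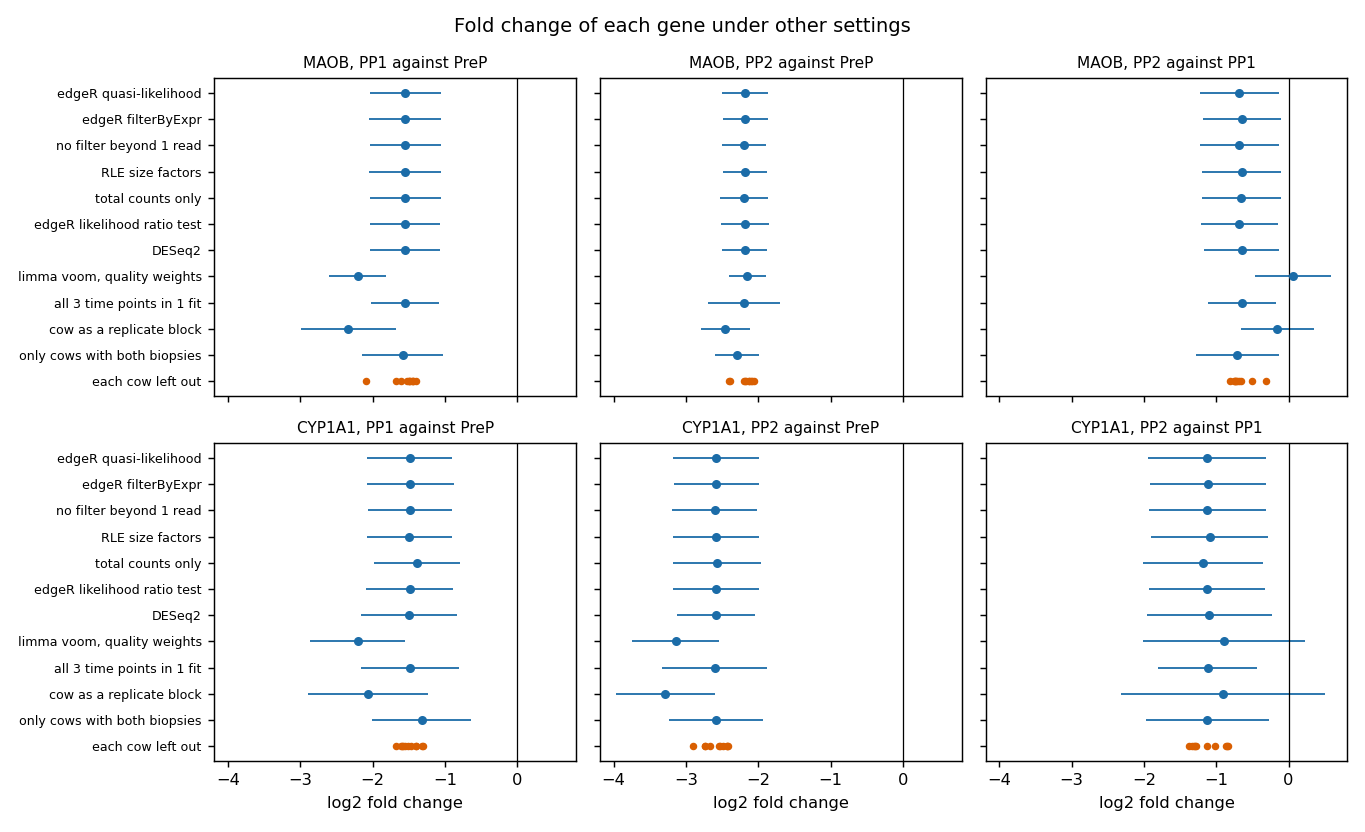
Log2 fold change of MAOB (top) and CYP1A1 (bottom) in the 3 comparisons under each setting, with bars of 1 standard error. Orange points without bars leave out 1 cow each. All estimates against PreP lie below 0, and for MAOB from PP1 to PP2 the limma voom estimate lies at 0.06.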

How the data were processed

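RNA of each AT biopsy was sequenced by a commercial provider, and the authors' pipeline aligned reads to the bosTau7 genome and summed them over Ensembl genes. The tools named in the submitters' processing notes are HISAT2 2.1.0, HTSeq 0.6.1 and edgeR 3.4.2. The deposited values are raw read counts, and strandedness is not given in the sources used here. All 28 columns were assigned to cow and time point by their labels, and no further column of per-sample values was found. Symbols came from a shortened table of the study that pairs 1865 identifiers with a symbol, so most genes have none.

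A gene was tested if 1 library or more of the comparison held 3 reads of it. Only the 2 time points compared entered each fit, in R 4.3.3 with edgeR 4.0.16 (TMM scaling, quasi-likelihood test, Benjamini-Hochberg adjustment), and a gene was called at an adjusted p under 0.05 with a log2 change beyond 1 in size. The 95% intervals are normal intervals from the SE. CPM shown are scaled by TMM over all libraries, and log2 CPM used a prior count of 1. Alternatives used other filters, scalings and tests (DESeq2 1.42.0, limma 3.58.1), all time points together, cow as a replicate block and each cow left out. The test was checked on simulated counts.

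MAOB, CYP1A1 and all gene lists were chosen with earlier results of these data known. By rule, other genes were named as close relatives, as the 5 most like MAOB or CYP1A1 (at most 2 identifiers without a symbol) or as the 2 list genes changed most among those called at PP2. Some of the matched genes are not reported here. The remaining genes named, and the likeness ranking among genes with a symbol, were chosen after their values were seen. Replicate numbers are cows, so the same number marks the same animal and pairs the samples. Deviations from the time-point means correlated on average at 0.148 between PreP and PP1 of the same cow, at 0.0104 between PreP and PP2 and at 0.112 between PP1 and PP2.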

Additional observations from a re-analysis of the deposited data

Results flagged for a closer look

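Gaps within groups of 4 to 10 values were tested by Dixon's criterion in 15 groups, of which 0.75 would pass by chance (about 1 in 20), and 2 did. Both concern cow B5102. Its MAOB level at PP1, -0.50 as log2 CPM, lay far from the nearest of the other 9 libraries, at 3.48. Its change in MAOB from PP1 to PP2, 4.20 on the log2 scale, lay far from the next largest, 0.59. The same PP1 library gives both values.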

How the results depend on the processing

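Of 280 alternatives to 17 results, 255 kept direction and side of the threshold. MAOB at PP1 passed the threshold with edgeR's likelihood ratio test (-1.55), DESeq2 (-1.55), limma voom with quality weights (-2.20), without cow B5169 (-2.09) or B5079 (-1.67) and, in fits added after seeing the data, without the PP1 library of B5169 (-2.0) or of B5102 (-1.40), but not without cow B5102 as a whole (-1.40, adjusted p = 0.0570). CYP1A1 at PP1 passed with voom (-2.21). Voom turned MAOB from PP1 to PP2 to 0.062. With each cow left out, MAOB at PP1 ran from -2.09 to -1.40, MAOB at PP2 from -2.41 to -2.06 and CYP1A1 at PP2 from -2.91 to -2.42, the latter 2 called each time. The cause of these differences was not tested.

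With cow as a replicate block, MAOB was -2.34 and CYP1A1 -2.06 at PP1, and -2.45 and -3.28 at PP2, and no call on either gene changed. The block lowered all calls from 744 to 58 at PP1 and from 1015 to 409 at PP2. At PP1, voom made 1562, the fit of all time points 310 and paired cows alone 411. With each cow left out, all calls at PP1 ran from 296 (without B5129) to 1748 (without B5169).

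Correlations pooled over both CYP1A1 clusters are not results. Pearson's r was 0.78 at PP1 (permutation p = 0.00687, adjusted over 5 relations 0.0343) and 0.67 at PP2 (0.0414, 0.069), and for the within-cow changes 0.76 to PP1 (0.0212, 0.053) and 0.67 to PP2 (0.0756, 0.0945). Spearman's rho was 0.43 (permutation p = 0.220, adjusted 0.275), 0.75 (0.0255, 0.127), 0.62 (0.115, 0.192) and 0.69 (0.0694, 0.173). Without the 2 libraries or cows farthest from the median of MAOB, r was 0.447, 0.379, 0.501 and 0.293 on 8, 7, 6 and 6 values, and these relations rest in part on those samples. With each cow left out r ran from 0.495 to 0.841, from 0.480 to 0.749, from 0.398 to 0.817 and from 0.517 to 0.763. At PreP r ran from -0.608 to 0.292, and turned positive without B4886 (0.0258), B5169 (0.292), B5165 (0.176) or B5090 (0.0146).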
